A study of Rattus norvegicus with 12 samples.

Results

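The 3 untreated organotypic cultures described here were grown from rat epidermal keratinocytes (REK), a continuous line of newborn rat skin origin, and were mock-irradiated and given no betaine. They are 3 of the 12 cultures of the series, picked out by their treatment label, and carry the labels A, B and C. The other cultures received 10 mM betaine for 11 days, UVB at 30 mJ/cm2 given 24 h before collection, or both, in groups of 3. All 12 were grown without feeder cells and collected at 2 weeks, when an epidermal layer had formed. That layer was peeled from the insert and its collagen, and its total RNA was hybridised to an Illumina RatRef-12 BeadChip. The cells come from a single line, and the labels do not say whether the 3 cultures came from separate experiments, so the spread given below may be technical. Signal, detection and rank are described within the control arrays, and no treatment is compared.

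An organotypic epidermis renews itself from a basal layer that is anchored to its support by hemidesmosomes and makes keratins 5 and 14. Cells that leave this layer switch to keratins 1 and 10, then build a cornified envelope of cross-linked proteins and export lipids that seal the surface. Proteases and their inhibitors finally control the shedding of the outermost cells.

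Of the 4 keratins that mark these cells, Krt14, Krt10 and Krt1 were detected on all 3 arrays, and no probe carried the name Krt5. Krt14, the type I keratin of basal cells, had signals of 32024, 32016 and 31809 in cultures A, B and C. Krt10, the type I keratin of suprabasal cells, read 31023, 31660 and 33725, and its type II partner Krt1 read 31893, 26218 and 31532. All 3 genes therefore stood at or above percentile 99.7 of the 21405 named genes in signal. The cultures hardly differed in Krt14 and Krt10, and Krt1 was lowest in B. Signals are array units before normalisation, each gene is given by its brightest probe, and a probe's brightness depends on the probe as well as on the RNA. An order between genes is therefore an order of signals and not of transcript numbers.

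The proximal promoter of Krt10 is shown because Krt10 is among the brightest genes of the arrays, with Asprv1 and Il36g, which lie far lower in culture A than in B and C, beside it. Each window runs from 250 bases before to 50 bases after the start of the gene (RefSeq, build GRCr8), in the sense of the gene. Capitals mark the letters TATAAA. The Krt10 window is chr10:84839111-84839410 on the minus strand, that of Asprv1 is chr4:120634543-120634842 on the plus strand, and that of Il36g is chr3:27346437-27346736 on the plus strand.
Krt10: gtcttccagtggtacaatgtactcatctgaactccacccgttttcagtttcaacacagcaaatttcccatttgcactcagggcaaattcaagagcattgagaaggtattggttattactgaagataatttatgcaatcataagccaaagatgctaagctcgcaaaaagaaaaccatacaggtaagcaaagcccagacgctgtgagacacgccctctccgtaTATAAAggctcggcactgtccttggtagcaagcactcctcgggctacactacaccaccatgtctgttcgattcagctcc
Asprv1: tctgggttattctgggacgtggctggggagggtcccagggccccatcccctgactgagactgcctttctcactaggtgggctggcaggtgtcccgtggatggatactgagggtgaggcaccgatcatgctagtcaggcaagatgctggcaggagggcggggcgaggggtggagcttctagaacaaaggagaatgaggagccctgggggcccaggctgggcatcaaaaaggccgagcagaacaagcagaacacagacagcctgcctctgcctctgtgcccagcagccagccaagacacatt
Il36g: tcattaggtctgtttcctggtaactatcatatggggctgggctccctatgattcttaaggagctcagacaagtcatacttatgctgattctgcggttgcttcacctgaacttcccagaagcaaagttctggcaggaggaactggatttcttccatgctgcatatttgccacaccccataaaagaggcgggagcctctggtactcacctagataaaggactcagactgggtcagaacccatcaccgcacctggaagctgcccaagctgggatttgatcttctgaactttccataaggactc
The TATAAA of Krt10 begins 29 bases before the start, and the other windows hold none. Searched on both strands, TATAAA occurs in 14.2% of the 33469 rat windows in the table, and TGANTCA, the letters of an AP-1 site, in 7.33%. Of the 30 brightest genes, 18 had a window in the table, of which 4 held TATAAA and 0 held TGANTCA. Of the 15 genes that differed most between cultures, 13 had a window, of which 1 held TATAAA and 0 held TGANTCA.

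Across the whole array, 9629 of 21405 named genes (45.0%) were detected on all 3 control arrays, with a detection p-value under 0.05 for at least 1 probe. Another 1423 genes (6.65%) were detected on 1 or 2 arrays, and 10353 (48.4%) on none. For a gene detected on none, here and below, the reading is only a bound for its probes. Of 919 genes with several probes, 312 had 1 probe detected on all 3 arrays and another on none. The number of detected probes was 10591 in culture A, 10759 in B and 10434 in C, of 22523, and the median signals were 108.6, 113.0 and 106.4. Detection began at a signal of 114 to 118. As a check on the threshold, 5 of 86 olfactory receptor genes (5.81%) and 8 of 103 vomeronasal receptor genes (7.77%) passed on all 3 arrays. The highest mean signal was 239.8 among the olfactory and 313.1 among the vomeronasal receptors. Genes described below with mean signals under the higher of these, such as Mki67, Krt80, Krt2, Vdr and Pmel, were detected but are no brighter than such receptors. Both receptor families were added after the data were seen.

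**Figure D1:**
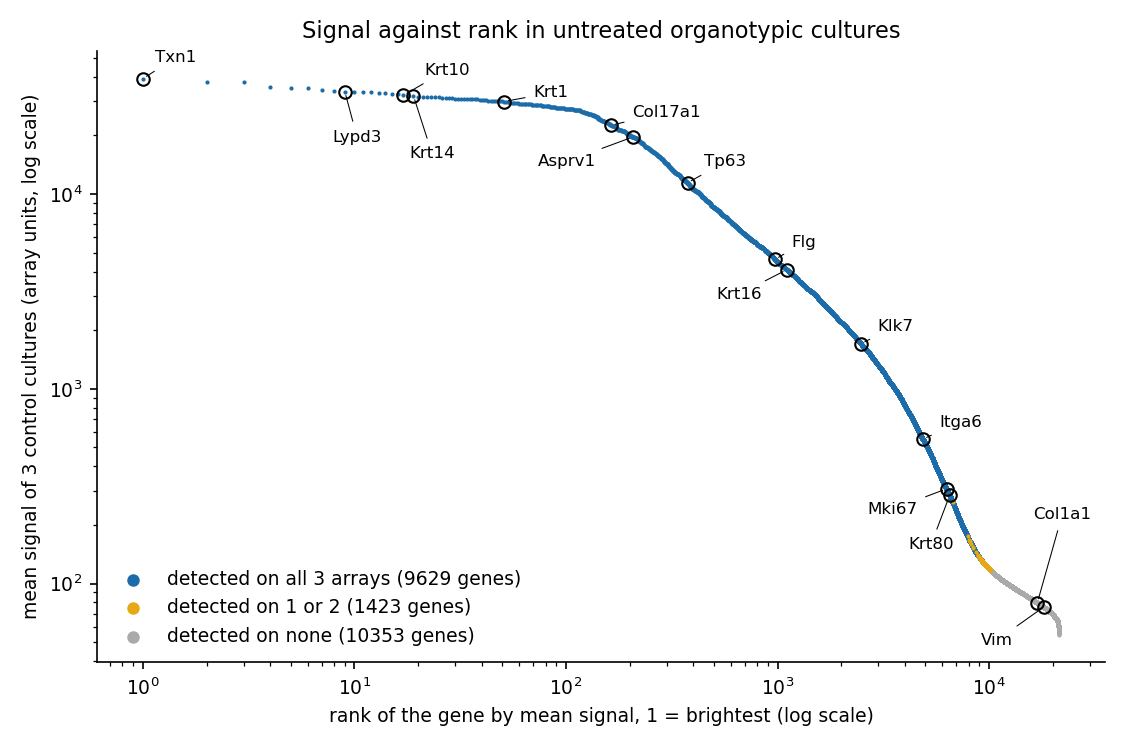
Mean signal of the 3 control cultures (array units, log scale) against the rank of each of 21405 named genes (log scale), coloured by the number of control arrays that detected the gene. Circles mark named genes: Txn1, Lypd3, Krt10, Krt14 and Krt1 lie on the flat top of the curve, Flg and Klk7 on its slope, and Vim and Col1a1 among the genes detected on none.

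The brightest gene was Txn1, thioredoxin, which keeps protein thiols reduced, with 38190, 39830 and 39604. Of the 30 brightest genes, 11 encode ribosomal proteins and 6 carry only an array identifier. Lypd3, a membrane protein of suprabasal keratinocytes, read 34846, 31799 and 34276 and ranked 9. Fth1, the heavy chain of the iron store ferritin, read 31314, 32534 and 34448. Others with a symbol included Krt10, Krt14, Bri3, the translation factors Eif3f, Eef1a1 and Eef1b2, the cyclophilin Ppia, the ATP synthase subunit Atp5f1b, and Nlrc4. Nlrc4, an inflammasome sensor, is uncertain, because its probes had mean signals of 31460 and 104.1. Among the 100 brightest genes were 29 ribosomal proteins, 2 suprabasal keratins and 1 basal keratin. Another 3 were on the cornified envelope list, Lypd3 among them. Of the 70 ribosomal protein genes measured, 64 were detected on all 3 arrays, against 45.0% of all genes. Rps19, Rpl34, Rpl12, Rps28, Rpl11 and Rpl38 were detected on none, which does not show that their transcripts are absent.

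Keratins outside the hair and nail group were mostly detected, 15 of 22 on all 3 arrays, against 45.0% of all genes. Krt15, a second basal type I keratin, read 18788, 23400 and 18329. The stress keratins Krt16 and Krt17, which epidermis makes after wounding, were detected in every culture: Krt16 at 2757, 4368 and 5144, and Krt17 at 3394, 2275 and 2504. Their order ran opposite ways, since culture A was lowest in Krt16 and highest in Krt17. Krt12, known from the cornea, read 3429, 5304 and 4783, and Krt13, known from mucosa that does not cornify, read 1290, 2292 and 2828. Krt23, which is known from simple and glandular epithelia, read 727, 1762 and 1485. The late epidermal keratins were dim: Krt2, of the upper epidermis, read 206, 307 and 239, and Krt80, a keratin of differentiating epithelia, read 141, 406 and 307. Krt8 of simple epithelia was detected on no array, with signals of 97 to 107, and Krt77 of sweat ducts likewise on none. Of 19 hair and nail keratins, 1 was detected on all 3 arrays (Krt36, mean 125), 3 on 1 or 2, and 15 on none.

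**Figure D2:**
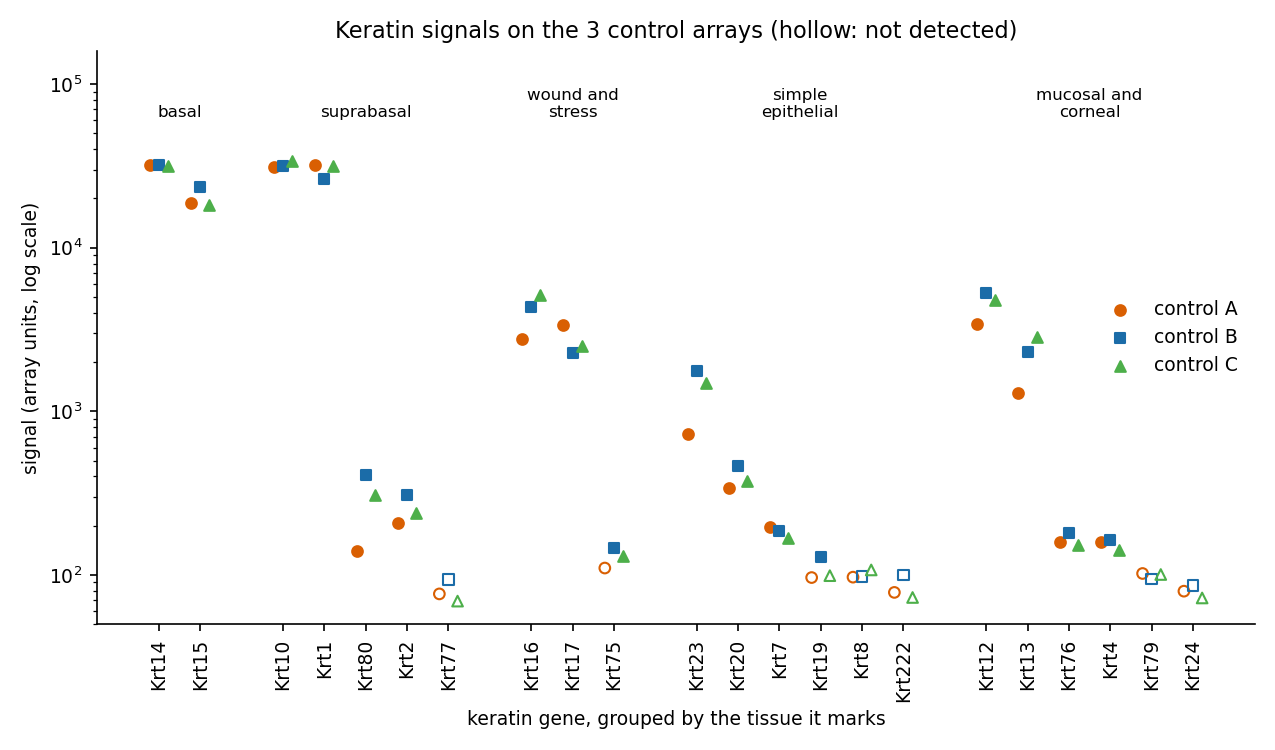
Signal of 22 keratins in control cultures A, B and C (array units, log scale), grouped by the epithelium each is known from; a hollow symbol is an array that did not detect the gene. Krt14, Krt15, Krt10 and Krt1 lie above the other keratins in every culture, and Krt80, Krt23 and Krt13 are lowest in culture A.

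Genes of the basal side were detected broadly. Of 18 genes for anchorage to the basement membrane, 16 were detected on all 3 arrays, against 45.0% of all genes, with a median percentile of 80.2. Col17a1, the collagen that spans the hemidesmosome, read 23092, 22586 and 22137. The hemidesmosomal integrin chains were unlike in signal: Itgb4 read 6424, 5163 and 5754, whereas its partner Itga6 read 559, 551 and 547. Lamb3, a chain of the epidermal basement membrane laminin, read 350, 372 and 321, and the probe for its partner chain Lama3 was detected on no array. The median SD of these genes between cultures, 0.146 log2 units, was near the 0.134 of all detected genes.

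Cell junctions were represented by 10 of 12 desmosome genes and 16 of 18 adherens and tight junction genes, against 45.0% of all genes. Perp, a p53-regulated desmosome component, read 32009, 29194 and 31156. The armadillo proteins Pkp3 (19530, 17350 and 19414), Jup (16276, 19350 and 19025) and Pkp1 (15084, 17082 and 15921) also lay above percentile 98. Dsc1, the desmocollin of the uppermost layers, read 1294, 2192 and 2035, with culture A lowest. Dsc2, the desmocollin of simple epithelia, passed on 2 arrays only, at 100, 139 and 126. Among classical cadherins, Cdh1 (E-cadherin) read 1414, 1251 and 1272, and Cdh3 (P-cadherin, basal) read 698, 752 and 607. Gja1, connexin 43, was the brightest gap junction gene at 15195, 18192 and 16445.

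The cornified envelope list, which also holds the membrane protein Lypd3 and secreted proteins, was among the brightest groups. Of its 21 genes, 18 were detected on all 3 arrays, against 45.0% of all genes. The median percentile was 94.9, and 16 genes lay above percentile 90. The secreted proteins Dmkn (26635, 29332 and 31262) and Sbsn (26220, 28573 and 30477) and cornifelin, Cnfn (23132, 25240 and 26933), led the group after Lypd3. The cross-linking enzymes Tgm1 and Tgm3 were also detected in every culture, Tgm1 at 3289, 4460 and 4333 and Tgm3 at 2486, 3235 and 3532. The small proline-rich substrates Sprr1b (14370, 19521 and 20843) and Sprr1a (11009, 17320 and 16478) were bright. Flg, filaggrin, which bundles keratin filaments, read 2623, 6015 and 5216. Ivl, involucrin, an early substrate of the envelope, was dim at 252, 456 and 331. Loricrin, usually the main envelope protein of skin, was detected on no array, at 71.4 to 84.5, and so was Scel at 95.9 to 98.3. A single probe stands for each of these, so their readings are bounds for that probe.

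Shedding and barrier genes were as widely detected. Of 20 desquamation genes, 19 were detected on all 3 arrays, against 45.0% of all genes, with a median percentile of 93.5. Klk6, a trypsin-like kallikrein, read 15146, 21349 and 22582. Klk7, the chymotrypsin-like kallikrein of the horny layer, read 687, 2119 and 2315, and Klk5, which activates it, was detected on no array. The inhibitors Cst6 (22649, 23156 and 24840) and Spink5 (12911, 17054 and 17499) were brighter in signal than most kallikreins. Of 33 genes for barrier lipids, 30 were detected on all 3 arrays. Degs1, which completes the ceramide backbone, read 18195, 19819 and 19927. Abca12, which loads lipid into lamellar granules, read 1786, 3290 and 2740, and Ugcg, which makes glucosylceramide, read 5511, 8248 and 6035. Cers3, the ceramide synthase for the longest acyl chains, was detected on none.

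**Figure D3:**
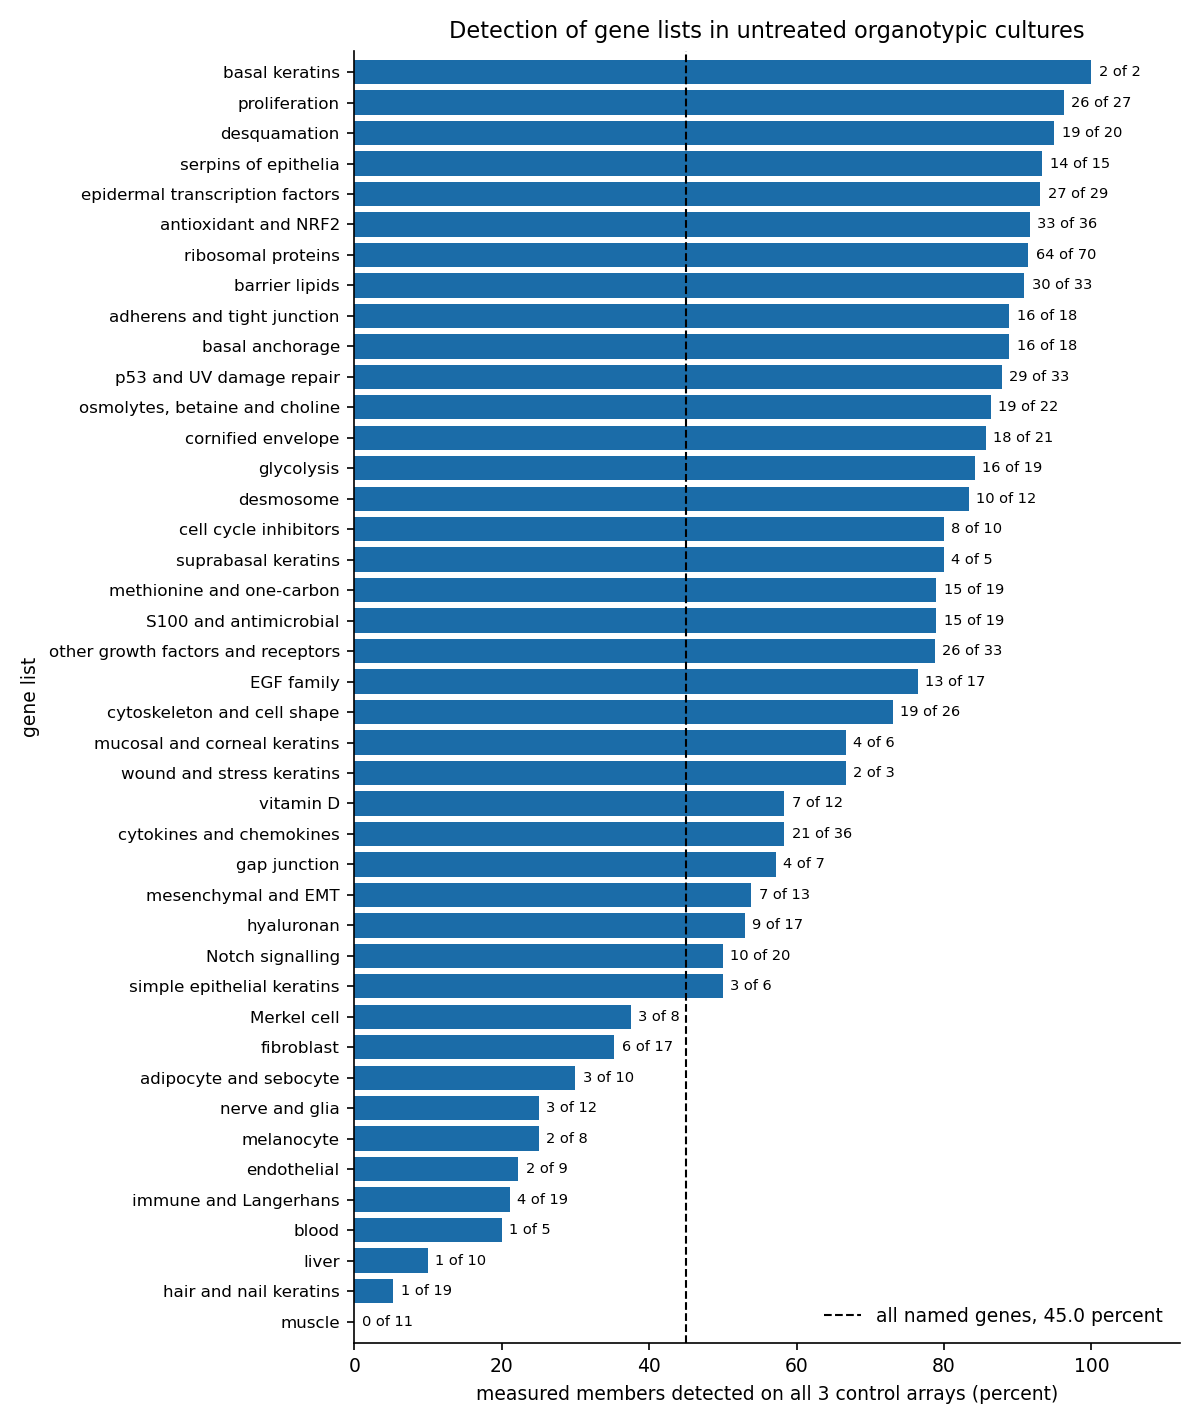
Percent of the measured members of each of 42 gene lists that were detected on all 3 control arrays, with the counts beside the bars and a dashed line at 45.0%, the share of all named genes. Most epidermal lists lie in the upper part, together with the proliferation, redox, ribosomal and repair lists. Lists of muscle, hair and nail keratin, liver, blood, immune and endothelial genes lie at the bottom.

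Transcription factors of epidermis were detected in 27 of 29 cases. Tp63, the factor that defines stratified epithelium, read 12448, 11387 and 10468. Hopx, of the suprabasal layers, read 16632, 26303 and 25216, and Klf4, a factor of barrier formation, read 10384, 16806 and 11496. Grhl3, another factor of the outer layers, read 1053, 1556 and 1380. In the Notch pathway, which drives cells out of the basal state, 10 of 20 genes were detected on all 3 arrays, a share near the background of 45.0%. These included Notch1 (5097, 3830 and 4009), the ligands Jag2 and Jag1 at means of 1436 and 764, and the target Hes1 (2187, 2085 and 2162).

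Proliferation genes were detected in 26 of 27 cases, against 45.0% of all genes. Ccnd1, the cyclin that opens G1, read 13388, 14875 and 13240, and the replication clamp Pcna read 7903, 7785 and 7469. Mki67, the common marker of cycling cells, read 301, 319 and 301. The anti-proliferative gene Btg1 was far brighter in signal than Cdkn1a, the p21 inhibitor, with 28786, 29774 and 29310 against 231, 237 and 237. Cultures differed little in all of these. In mock-irradiated cells, 29 of 33 genes of the p53 response and of UV damage repair were detected, among them Mdm2 (2622, 2414 and 2327), the E3 ligase of p53, and Ddb2 (241, 222 and 237), a sensor of UV lesions.

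Genes of redox control were bright, with a median percentile of 94.8 and 33 of 36 detected, against 45.0% of all genes. Beside Txn1 and Fth1, the peroxiredoxin Prdx2 read 26723, 26392 and 29327, and Nqo1, a quinone reductase and NRF2 target, read 15253, 16566 and 17691. Of 22 genes of osmolytes, betaine and choline, 19 were detected, also above that share. High readings are common among the lists: of 42, 31 had a median signal percentile above 50. Slc38a2, an amino acid carrier that rises in hypertonic medium, read 22862, 18984 and 18980. The betaine carrier Slc6a12 was detected on no array, at 68.6 to 75.9, while the taurine carrier Slc6a6 read 862, 715 and 716 and the inositol carrier Slc5a3 read 2988, 2815 and 2460. Chdh, which makes betaine from choline, read 1458, 1262 and 1434, and Bhmt, which spends it on methionine, was barely detected at 140, 136 and 133.

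Signalling and defence genes were divided. Of 17 EGF family genes, 13 were detected, with Tgfa the brightest ligand at 1334, 2097 and 1750 and the receptor Egfr at 410, 478 and 422. Areg, another ligand, passed on 1 array. Pdgfa, a growth factor that acts on dermal cells, read 25117, 22342 and 21488. Of 36 cytokines and chemokines, 21 were detected, not far above 45.0%, with Mif at 8116, 7589 and 7587 and the chemokine Ccl20 at 4208, 3140 and 3488, and Tnf passed on 1 array. S100a8, an alarmin subunit, read 2236, 2006 and 2104, but its partner S100a9 was detected on none, at 73.0 to 74.8. The defensin Defb4 read 16806, 20004 and 21549. Of 17 hyaluronan genes, 9 were detected, and in vitamin D metabolism and response 7 of 12, shares near the 45.0% of all genes. The hyaluronan genes included the receptor Cd44 at 2825, 2783 and 2681 and the synthase Has2 at 188, 191 and 159, whereas the synthases Has1 and Has3 were detected on none. The vitamin D receptor Vdr read 252, 277 and 243.

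Markers of other cell types were sparse, with 25 of 109 genes on 10 lists detected on all 3 arrays (22.9%, against 45.0% of all genes). Of 17 fibroblast genes, 6 were detected, Pdpn brightest at 4844, 3912 and 4519, and the defining genes Col1a1, Col1a2, Dcn, Lum and Pdgfra were detected on none. Summed over its measured members, the fibroblast list read 8640, 7961 and 8112. Of 19 immune and Langerhans genes, Epcam (mean 3260), Cd14 (mean 865), Cd68 and Cd3e were detected on all 3 arrays, and Ptprc, the pan-leukocyte marker, and Cd74 on none. Of 8 melanocyte genes, Pmel and Mlana were detected at 284 and 156, and Tyr, Tyrp1 and Sox10 on no array. The Merkel cell genes Isl1 (572, 635 and 571), Sox2 and Krt20 were detected, and Atoh1, Chga and Syp were not. Of 10 adipocyte and sebocyte genes, Scd, the stearoyl desaturase that many cells use for lipid synthesis, read 23210, 27415 and 24156, while Adipoq, Plin1 and Fabp4 were detected on none. Muscle genes were detected on all 3 arrays in 0 of 11 cases, liver genes in 1 of 10, blood genes in 1 of 5, endothelial genes in 2 of 9 and nerve and glia genes in 3 of 12.

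The cultures were alike in most genes, and culture A held most of the lowest values among the genes that differed. Over the 9629 genes detected on all 3 arrays, log2 signals after background correction and quantile normalisation had a median SD of 0.134 between cultures. Their Pearson correlation across genes was 0.989 between A and B, 0.993 between A and C and 0.995 between B and C, with genes that are not independent. A range of 1 log2 unit or more between cultures was found for 129 genes (1.34%). Of these, 99 were lowest in A, 25 in B and 5 in C, whereas over all detected genes A was lowest for 32.9%, B for 38.1% and C for 29.0%. Of the 129, 25 are on a gene list used here. With culture A left out, 4 genes of 9824 detected on both remaining arrays had such a range: Prl8a7, Tmem177 and a pair with array identifiers only, named after their values were seen. Without culture B it was 69 genes, and without culture C 115. The count was 69 when the quantile normalisation was run without background correction and 44 in the authors' processed values.

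The 15 genes with the largest ranges, 1.79 to 2.99 log2 units, were all lowest in culture A. The next gene had a range of 1.74, and the median gene a range of 0.256. Asprv1, the protease that processes profilaggrin, read 7199 in A, 27960 in B and 23894 in C, a fold of 3.88 between the lowest and highest deposited signal and of 4.22 after normalisation. Il36g, an epidermal cytokine of the interleukin 1 family, read 955, 3525 and 2871, and Klk7 read 687, 2119 and 2315. In each of these 3 genes A was far below B and C, which were close together. Xkrx, a membrane protein of the XK family, had the largest range, with 122, 530 and 314, and in A it lay just above the detection level. Its fold was 7.92 after background correction but 4.35 in the deposited signals. Hpgd, which inactivates prostaglandins, read 318, 1003 and 661, and Pla2g2f, a secreted phospholipase of suprabasal epidermis, read 469, 1428 and 1106. Krt80, Mxd1, a partner of MAX that opposes MYC, the kinase Nlk and the phosphatase Dusp14 showed the same order, with A lowest and B highest. Dusp14l1 is by name a copy of Dusp14, and their signals may not be separable. Its brightest probe (111, 293 and 221) was not detected in A, where another of its probes was, so its value in A is only a bound. The others were Tmem86a, Lypd5, Qpct, a glutaminyl cyclase, and LOC310587. Like Xkrx, Tmem86a (131), Nlk (129), Lypd5 (119), Dusp14 (138) and Krt80 (141) read near the detection level in A. The ranges of these genes, and with them the order of the 15, therefore depend on the background taken off. Because the 15 were chosen on these arrays, their order is a description.

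**Figure D4:**
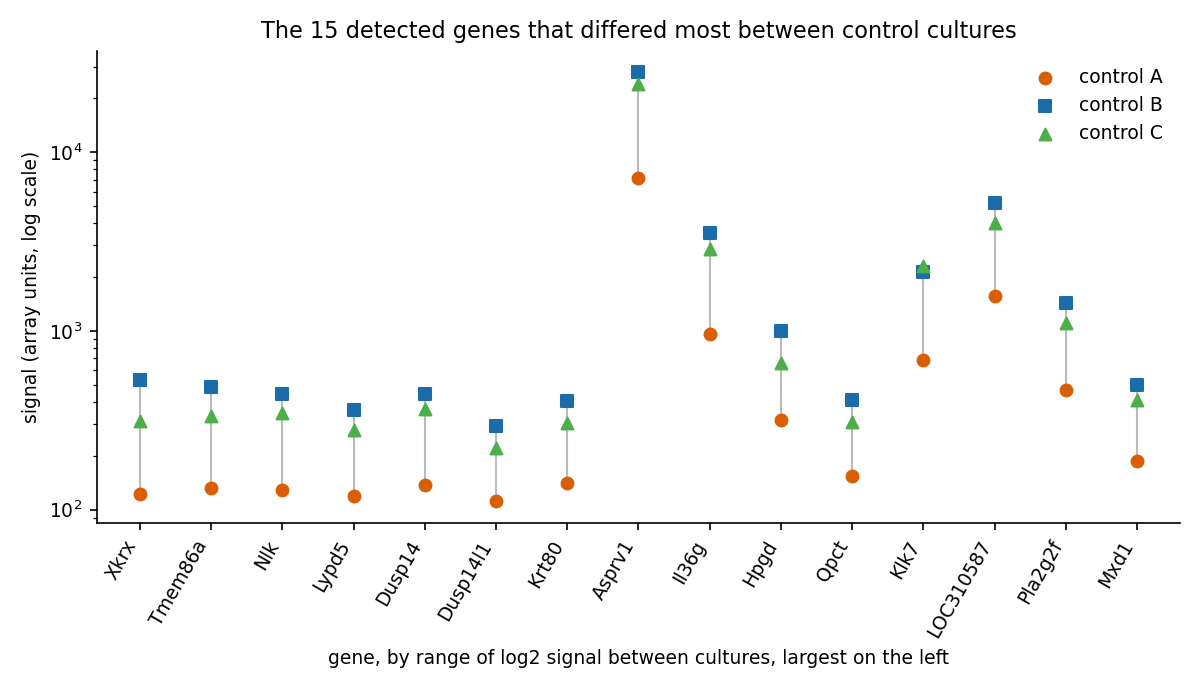
Signal (array units, log scale) of the 15 detected genes with the largest range between control cultures A, B and C, ordered by that range from left to right. Culture A is lowest in all 15, and B is highest in 14, whereas B was highest in 34.2% of all detected genes.

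Several gene lists lay low in culture A. In the cornified envelope list, 16 of 18 detected genes were lowest in A, in the desquamation list 17 of 19, and in the barrier lipid list 23 of 30, against 32.9% of all detected genes. The median deviation of A from the gene means was -0.30, -0.25 and -0.23 log2 units in these lists, and 0.02 over all detected genes. The value for desquamation was -0.15 without culture C, when it is taken from the mean of A and B only. That for barrier lipids was -0.14 in the authors' processed values. Low values in A were not limited to these lists: all 4 detected gap junction genes and 9 of 16 adherens and tight junction genes were lowest in A, and the median deviation was -0.24 in 3 simple epithelial and -0.22 in 4 mucosal and corneal keratins. The 9 detected kallikreins, already counted in the desquamation list and singled out after their values were seen, were all lowest in A. Of these, 5 (Klk7, Klk9, Klk10, Klk12 and Klk14) had a range of 1 log2 unit or more. Of the other 10 detected desquamation genes, 8 were lowest in A and 0 had so large a range. Klk14 read 6678, 13822 and 14702, and Klk10 read 3240, 6198 and 7006. Rptn, repetin, read 2968, 7594 and 6396, and Sprr3 read 2240, 4543 and 5981. Of 25 list genes with so large a range, 23 were lowest in A, including Flg, Ivl, Krt13, Krt23, Serpinb7, Sptlc3 and Prdm1. The exceptions were Ftl1, ferritin light chain, at 7986, 3834 and 5530, and Aloxe3, an epidermal lipoxygenase, at 266, 157 and 178, both lowest in B.

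On the cytokine and chemokine list, 11 of 21 detected genes were lowest in A and 8 highest in A, against 32.9% and 39.2% of all detected genes. The share highest in A, with Mif and Ccl20, was thus near that of all genes. The median deviation of the list in A was -0.12 log2 units. Picked from that list after their values were seen, the 8 detected ligands and antagonists of the interleukin 1 family were all lowest in A, Il33 and Il1b with ranges under 1 log2 unit. Il36a read 800, 2501 and 2097, and Il36b read 1899, 4678 and 3908. Il1a read 564, 1318 and 1087, its antagonist Il1rn read 322, 598 and 551, and Il18 read 285, 710 and 470. Hmox1, heme oxygenase, read 1671, 4447 and 4059. Of 33 detected redox genes, 17 were lowest in A, against 32.9% of all detected genes, but their median deviation in A was only -0.03 log2 units. Prdx6, for example, read 8124, 8363 and 8215.

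Basal and proliferation genes did not share the order. Of 16 detected basal anchorage genes, 1 was lowest in A and 9 were highest in A, against 32.9% and 39.2% of all detected genes, with a median deviation of 0.09 log2 units that was 0.041 without culture C. Of 26 detected proliferation genes, 6 were lowest in A and 16 were lowest in B. Their median deviation of 0.06 in A was 0.019 without culture B. With a culture left out, deviations are from the mean of the cultures kept, which by itself shrinks them where the other cultures are alike. Desmosome genes, with a median deviation of -0.01 in A, were also level. Values that accompany culture A are a detected share of 47.0% of probes, between the 47.8% of B and 46.3% of C, and a median signal of 108.6 that also lies between theirs. The summed signals of other cell types in A, B and C were 1827, 2006 and 1812 for Merkel cell genes, 5887, 5716 and 5773 for immune genes and 979, 977 and 946 for melanocyte genes. In these sums, 4 of 8 Merkel cell, 12 of 19 immune and 6 of 8 melanocyte genes were detected on no array and add only background. Epcam alone had a mean of 3260 in the immune sum. The sums therefore say little about how many other cells were present. The part of these sums, of the detected share and of the median signal in the low signals of culture A was not tested. In bulk RNA, fewer differentiated cells and less RNA per such cell cannot be told apart.

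**Figure D5:**
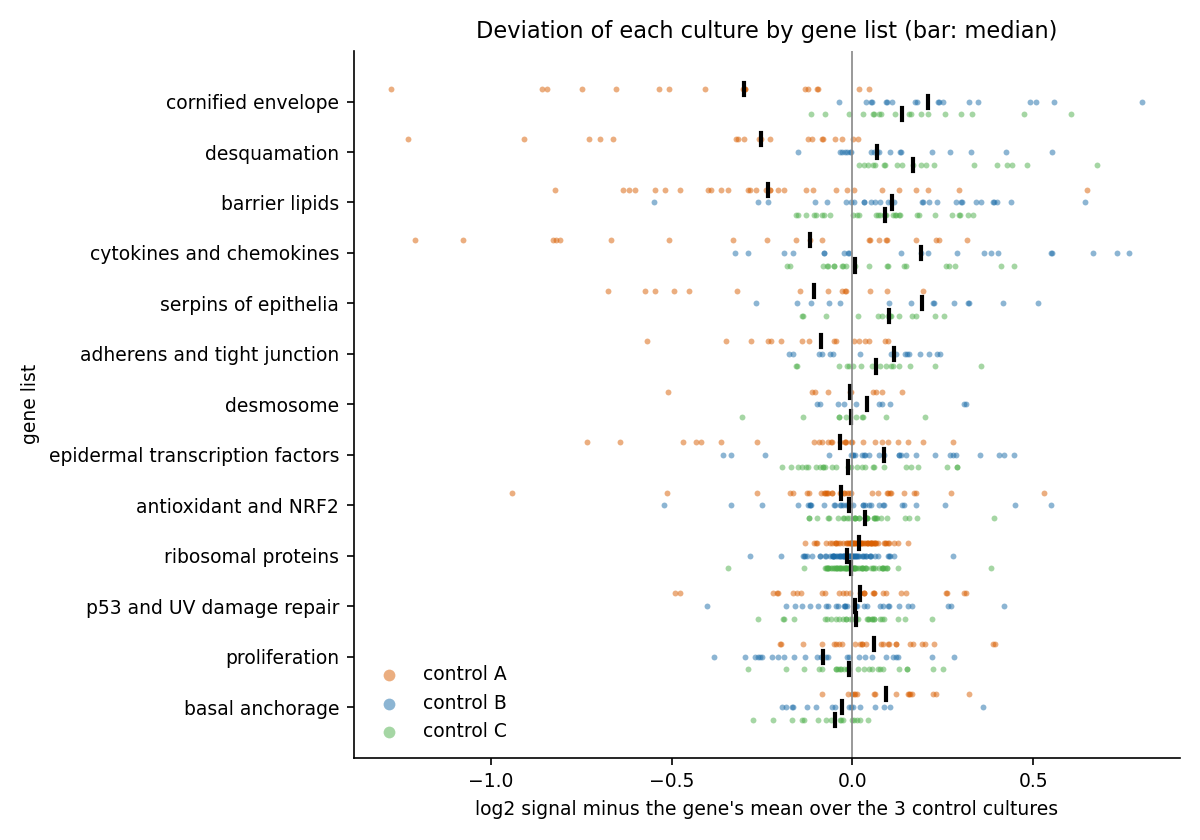
Log2 signal minus the gene's mean over the 3 control cultures for the detected members of 13 gene lists, each point a gene in culture A, B or C and each black bar the median of a culture. Culture A lies to the left in the cornified envelope (-0.30), desquamation (-0.25) and barrier lipid (-0.23) lists and near 0 in ribosomal, repair and proliferation genes.

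The spread between control cultures can be set beside that in the other groups of 3. A range of 1 log2 unit or more was found for 129 genes (1.34%) in control cultures, 244 (2.56%) in betaine cultures, 33 (0.346%) in UVB cultures and 21 (0.218%) in cultures with both. Each share is of the genes detected on all 3 arrays of that group, in the same order 9629, 9532, 9551 and 9622. The median SD was 0.134 in control, 0.136 in betaine, 0.111 in UVB and 0.0967 in the combined group. The 15 genes chosen on the control arrays also differed among cultures elsewhere. There, however, culture C was lowest in 11 of 15 with betaine, in 15 of 15 with UVB and in 15 of 15 with both. How often C was lowest over all detected genes of those groups was not counted, so these counts have no background share beside them. The median range of the 15 genes was 2.08 log2 units in control cultures, where they were chosen, and 1.06, 1.09 and 1.07 in the betaine, UVB and combined groups. Control culture A had the lowest value of all 12 arrays in 14 of these 15 genes, the exception being Pla2g2f. The choice of the genes favours this, because they were picked for a range in which control A was lowest. Some margins were small, as in Il36g, with log2 values of 9.6685 in control A and 9.6692 in culture C with both. No test was made of these differences between groups, and what set single cultures apart was not tested.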

How the data were processed

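Total RNA of the epidermal layer of 12 cultures was hybridised to RatRef-12 arrays, of which the 3 control arrays are described here. Per the file headers, the deposited table gives 22523 probes an average intensity per array, without normalisation, and a detection p-value. The p-values move in steps of 1 in 825, and the intensities still hold the background. The authors' processed log2 values, used only as an alternative, keep the rank order of these intensities, lack 174 probes and were normalised by a method not given in the sources used here. The submitters' processing notes name R 2.11 and limma.

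Levels, ranks and percentiles come from the deposited intensities. A gene is shown by its probe with the highest mean over the control arrays, and counts as detected where any of its probes has a detection p-value under 0.05. Of 919 genes with several probes, 312 had 1 probe detected on all 3 arrays and another on none. Spread between cultures is on log2 values from the neqc function (limma 3.58.1, R 4.3.3) on all 12 arrays (offset 16), which took the negative controls' level from the deposited p-values. Fold ranges of dim genes depend on the background taken off. No result here comes from a test between groups, and the scripts were tested on simulated data. With 3 arrays, their number limits the precision.

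RefSeq's rat gene table (GRCr8) supplied current names. A current symbol matched 10291 probes, a gene ID matched 1642 and an older synonym matched 4978, while 5495 probes kept the name on the array and 117 had none. Names through a synonym are less certain, among them Krt1, Krt7, Krt36, Asprv1, Sbsn, Cnfn, Tgm3, Tp63, Grhl3, Il36a, Il36b, Il36g, Epcam, Pmel, Sox2, Rplp0, Eif3f, Atp5f1b, Nlrc4, Eef1a1, Nlk, Lypd5, Qpct and Sptlc3. Promoter windows are from RefSeq.

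Named are the 30 genes with the highest mean signal, members of 42 gene lists (748 measured genes) and the 15 detected genes with the largest range between cultures. The treatment label defines the cultures, and no measured value selected them. The topic and the lists were chosen with earlier results of these data known. Alternatives were another detection threshold, other probe rules, other normalisations and leaving out each culture.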

Additional observations from a re-analysis of the deposited data

How the results depend on the processing

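No paired analysis was possible because the results come from no test, so there is no fit that could take the letters A, B and C as a block, and the labels do not say whether a letter marks a batch. The count of genes with a range of 1 log2 unit or more, 129, was 69 under quantile normalisation without background correction and 44 in the authors' processed values, and ran from 4 (without A) to 115 (without C) with 1 culture left out. The median SD of 0.134 was 0.0723 in the authors' processed values. Median deviations of A kept their sign in every list recomputed but not always their size. In the authors' processed values they were -0.14 for barrier lipids, -0.035 for cytokines and chemokines and 0.055 for basal anchorage. Without culture B, cytokines and chemokines stood at -0.052 and proliferation genes at 0.019. Without culture C, desquamation genes stood at -0.15 and basal anchorage genes at 0.041. These deviations are from the mean of the cultures kept, which by itself shrinks them where the other cultures are alike. The deviations of A have no value without culture A. The 15 named genes were lowest in A under every normalisation tried, with a smallest range of 0.616 in the authors' processed values. At a detection p-value under 0.01, 8418 genes passed on all 3 arrays, and 10221 passed on at least 2 arrays at 0.05. Genes near the detection level of 114 to 118 are limited by background.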

Other observations

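Of the 129 genes with a range of 1 log2 unit or more, 26 were highest in culture A, 84 in B and 19 in C. Over all detected genes A was highest for 39.2%, B for 34.2% and C for 26.6%. The 10 detected genes with the largest excess of A over the mean of B and C were listed after the data were seen. They are led by Ddah2, which degrades an inhibitor of nitric oxide synthase. Its signals were 1660, 692 and 1006 in A, B and C, an excess of 1.04 log2 units. Hp, haptoglobin, read 212, 133 and 144, with an excess of 1.03. The carriers Slc23a3 (629, 310 and 379) and Slc34a3 (314, 169 and 215) were also highest in A, Slc23a3 with an excess of 1.02.

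Epithelial serpins were detected in 14 of 15 cases, against 45.0% of all genes. Of the 14, 8 were lowest in A, against 32.9% of all detected genes. Serpinb7 read 2468, 5516 and 4343 and Serpinb12 read 5430, 9495 and 8657, while Serpinb1a, an inhibitor of neutrophil proteases, read 14642, 12894 and 14102. Glycolysis genes were detected in 16 of 19 cases, against 45.0% of all genes. Pgk1 read 12212, 11082 and 10626 and Gapdh read 9997, 8177 and 9182. The pyruvate kinase gene Pkm was barely detected at 128, 124 and 133, a reading of its brightest probe that need not reflect the transcript. Actb, cytoplasmic actin, read 29697, 28141 and 29183, and Vim, the mesenchymal filament protein, was detected on no array at 70.9 to 81.8.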
